A study of Mus musculus with 2 samples.

Results

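In the genome of mouse olfactory sensory neurons, 1539 of 6994 autosomal chromatin boundaries lay at a single protein-coding promoter. The deposited list holds 7367 boundaries in all, each an interval of 5 kb with a strength. A boundary was taken as single-promoter when its interval, widened by 10 kb on each side, held exactly 1 transcription start site (TSS) of a protein-coding gene on the GRCm38 build, and when that TSS did not belong to a pair of coding TSSs on opposite strands within 1 kb. Each of these 1539 boundaries had a different gene. Of the other autosomal boundaries, 230 lay at such opposite-strand pairs, 305 at several unpaired coding TSSs, and 4920 had no coding TSS in the window.

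The cells were mature olfactory sensory neurons expressing Olfr1507 (MOR28), the gene of a single odorant receptor. They were sorted by GFP fluorescence from the olfactory epithelium of MOR28-GFP mice. The mice were adults of the 129P2/OlaHsd strain and of mixed sex, and the labels list no treatment. In situ Hi-C, which counts ligated pairs of DNA segments that were close in the nucleus, was done with the restriction enzyme DpnII on 2 biological replicates of 170000 and 220000 cells, fixed with 1% formaldehyde. Both replicates were combined into 1 contact matrix before boundaries were called, so there was no replicate error and no test over samples. Intervals given here are 95% intervals for counting error only, and neighbouring boundaries are not independent. The number of read pairs behind the list is unknown. A Hi-C boundary list holds no expression, so the sorted cell type could not be checked against marker transcripts.

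Chromosomes fold into domains within which DNA contacts itself more than it contacts the neighbouring domain, and a boundary is the place where contacts across it are depleted. Many boundaries hold sites of CTCF, a zinc finger protein that stops the loop-extruding cohesin complex. CTCF motifs have a direction, and those at the ends of a loop usually point toward each other. Active promoters are also found at boundaries, and CpG-rich promoters are typical of broadly used genes, whereas many tissue-specific genes have promoters poor in CpG.

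The promoters of the strongest single-promoter boundaries had no common base composition, as the following 4 show. Each sequence runs from 250 bases before the TSS to the 50th transcribed base on the coding strand of the GRCm38 reference, which is of another strain than the mice. Capitals mark matches to short promoter motifs on either strand: the NF-Y core at Pdcl, Eif1 and Olfr1423, an ETS core at Pdcl and Zfp202, a GC box at Eif1 and an E-box at Zfp202. Their letters are given with their shares over all promoters. Pdcl, which encodes a phosducin-like chaperone of G protein beta-gamma assembly, lay at the strongest of the 1539 boundaries (strength 3.29), and its promoter held 40.0% GC. Eif1, a factor for start codon selection in translation, had a boundary of 3.10 and a promoter with 65.7% GC. Olfr1423 is an odorant receptor gene with a boundary of 2.84 and 38.7% GC, and Zfp202, a zinc finger gene, had a boundary of 2.59 and 60.7% GC.
Pdcl promoter, chr2:37359283-37359582, reverse strand: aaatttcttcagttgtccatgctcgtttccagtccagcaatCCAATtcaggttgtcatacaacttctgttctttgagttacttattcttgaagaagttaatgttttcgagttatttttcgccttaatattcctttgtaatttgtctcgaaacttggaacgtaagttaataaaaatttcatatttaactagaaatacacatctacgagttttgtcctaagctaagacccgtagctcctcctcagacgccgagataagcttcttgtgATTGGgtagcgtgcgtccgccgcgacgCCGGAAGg
Eif1 promoter, chr11:100319635-100319934, forward strand: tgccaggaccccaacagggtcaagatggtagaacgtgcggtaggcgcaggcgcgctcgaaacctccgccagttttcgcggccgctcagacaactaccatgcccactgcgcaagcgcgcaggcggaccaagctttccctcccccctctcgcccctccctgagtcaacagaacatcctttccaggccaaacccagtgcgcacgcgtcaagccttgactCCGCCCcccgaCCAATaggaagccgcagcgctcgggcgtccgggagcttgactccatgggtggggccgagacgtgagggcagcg
Olfr1423 promoter, chr19:12041268-12041567, reverse strand: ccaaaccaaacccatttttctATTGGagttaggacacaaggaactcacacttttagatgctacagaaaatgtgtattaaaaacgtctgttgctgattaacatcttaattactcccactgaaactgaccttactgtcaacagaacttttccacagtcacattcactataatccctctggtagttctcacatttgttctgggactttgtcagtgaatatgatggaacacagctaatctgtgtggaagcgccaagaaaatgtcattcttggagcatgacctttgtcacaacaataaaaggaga
Zfp202 promoter, chr9:40192066-40192365, forward strand: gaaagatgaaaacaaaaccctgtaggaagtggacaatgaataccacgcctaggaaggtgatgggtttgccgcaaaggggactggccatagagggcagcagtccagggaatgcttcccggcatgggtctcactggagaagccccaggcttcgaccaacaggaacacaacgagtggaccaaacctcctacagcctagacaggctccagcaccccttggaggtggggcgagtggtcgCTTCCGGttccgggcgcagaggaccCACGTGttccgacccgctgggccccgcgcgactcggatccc
The ratio of observed to expected CpG was 1.34 at Pdcl, 0.880 at Eif1, 0.181 at Olfr1423 and 0.617 at Zfp202.

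A match to the 12-base CTCF core lay in the widened window of 400 of the 1539 boundaries, or 26.0%. Among the 20 strongest 2 had one, and among the 100 strongest 35. The matches below are shown for their direction and come from 5 strong boundaries among those with a match. Each is written along its own motif strand, with the 12 matched bases in capitals and 10 flanking bases on each side. Fadd, the adaptor of death receptors, had a boundary of strength 2.47 and 2 matches on opposite strands. Psmd7 and Psmc1 encode proteasome subunits and had boundaries of 2.41 and 2.28. Crbn, a substrate receptor of a ubiquitin ligase, had a boundary of 2.32. At Ttc34 (strength 2.39) a match lay at -0.0815 kb from the TSS, inside the promoter.
CTCF match at Fadd, chr7:144585819-144585850, forward strand: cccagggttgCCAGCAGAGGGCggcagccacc
CTCF match at Fadd, chr7:144583814-144583845, reverse strand: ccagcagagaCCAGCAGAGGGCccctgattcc
CTCF match at Psmd7, chr8:107603201-107603232, forward strand: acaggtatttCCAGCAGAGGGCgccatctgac
CTCF match at Ttc34, chr4:154837362-154837393, forward strand: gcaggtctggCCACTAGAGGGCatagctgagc
CTCF match at Crbn, chr6:106810478-106810509, forward strand: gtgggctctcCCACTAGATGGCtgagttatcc
CTCF match at Psmc1, chr12:100106481-100106512, reverse strand: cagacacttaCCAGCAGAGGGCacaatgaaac
The matches at Psmd7, Crbn and Psmc1 lay upstream of their genes on the opposite strand to the gene, and so did 1 of the 2 at Fadd. This arrangement recurred over the whole set, as described after the strengths.

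Single-promoter boundaries were stronger than boundaries without a coding promoter. The strength, a deposited score with no stated scale, had a median of 0.689 (interval 0.655 to 0.724) and quartiles of 0.390 and 1.11, over a range of 0.201 to 3.29. Boundaries at opposite-strand pairs had a median of 0.751, those at several unpaired promoters 0.700, and those with no coding promoter 0.530 (interval 0.509 to 0.547). In the authors' strong class, which begins at a strength of 0.5, stood 989 of 1539, or 64.3% (Wilson interval 61.8% to 66.6%), beside 56.0% of all autosomal boundaries. The share was 70.0% at opposite-strand pairs, 63.6% at several unpaired promoters and 52.3% at boundaries with no coding promoter. The difference from the last was 12 percentage points (Newcombe interval 9.19 to 14.7). From opposite-strand pairs it was -5.74 points, with an interval of -11.8 to 0.906 that held 0. From several promoters it was 0.656 points, with an interval of -5.08 to 6.67. Strengths of 1 or more were reached by 30.1% of single-promoter boundaries and by 22.7% of those with no coding promoter. On each of the 19 autosomes the strong share was higher at single-promoter boundaries than at boundaries without a coding promoter, and it ranged from 56.9% to 71.8%.

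Base composition moved with this difference. The 25 kb window around single-promoter boundaries had a median GC content of 44.8%, against 42.1% at boundaries with no coding promoter. When all autosomal boundaries were divided into tertiles of GC content at 41.3% and 45.0%, the gap between the groups was wide in the lowest tertile and narrow above it. In the lowest tertile 57.2% of 243 single-promoter boundaries were strong, against 36.6% of 2037 with no coding promoter. In the middle tertile the shares were 63.8% of 555 at single promoters and 60.8% of 1630 without a coding promoter, with overlapping intervals. In the highest tertile they were 66.9% of 741 at single promoters and 66.6% of 1253 without one. The part of GC content in the difference was not tested otherwise.

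**Figure D1:**
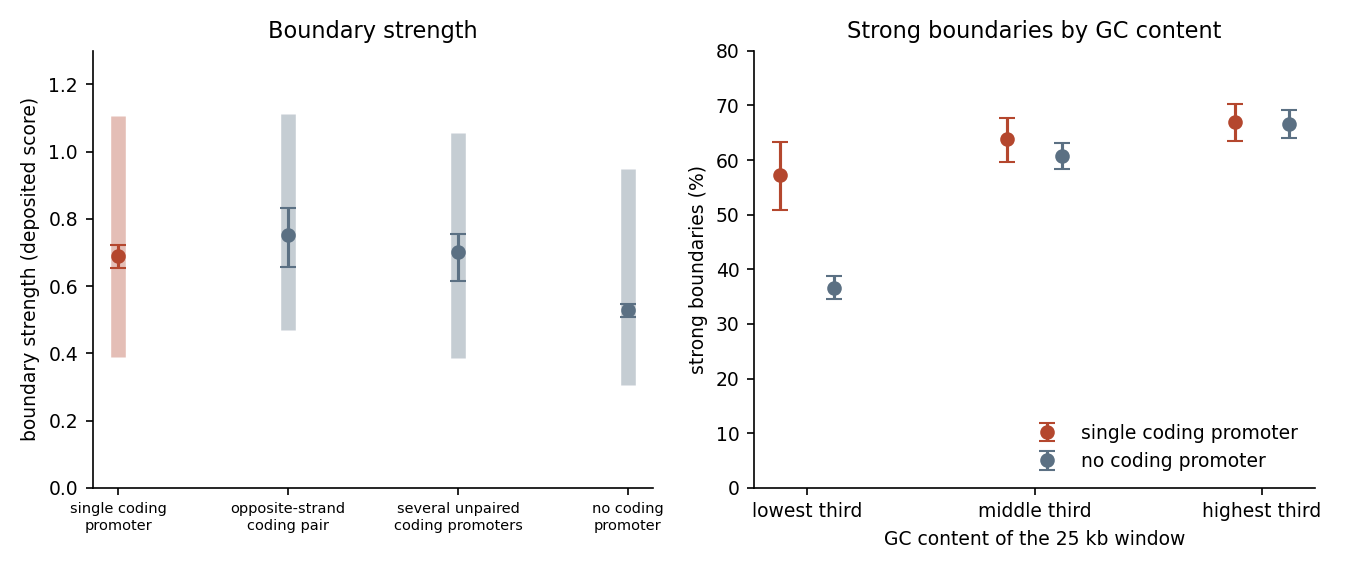
Left, deposited boundary strength by promoter class: points are medians with 95% intervals and bars span the quartiles. Single-promoter boundaries have a median of 0.689, against 0.530 for boundaries with no coding promoter. Right, percentage of strong boundaries by tertile of GC content of the 25 kb window, with 95% Wilson intervals: 57.2% at single promoters against 36.6% without a coding promoter in the lowest tertile, and 66.9% against 66.6% in the highest.

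The 20 strongest single-promoter boundaries lay at genes of many kinds. After Pdcl and Eif1 came Zfp984, a zinc finger gene, at 2.98 and AW209491 at 2.97. The odorant receptor gene Olfr1423 had 2.84 and Olfr220 had 2.78. Rxylt1, which adds xylose to the glycans of dystroglycan, had 2.83 and Fstl5, a follistatin-like gene of 636 kb, had 2.81. Yipf5, a Golgi membrane protein gene, stood at 2.70 and Ankrd60 at 2.67. Between 2.59 and 2.53 followed Zfp202, Tmem115, the proteasome gene Psmd6, Gm5788, the semaphorin receptor gene Plxna4 and Zfp407. Tfb1m, a methyltransferase of mitochondrial ribosomal RNA, had 2.52. Ebf3, a transcription factor of the family that binds odorant receptor promoters, had 2.499, Fadd 2.47 and Mettl7b 2.47. In 11 of these 20 the boundary midpoint lay upstream of the TSS, 9 of the 20 promoters were CpG-rich, and 7 of the genes were on the forward strand.

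CTCF matches in the window accompanied higher strength. Of the 1539 boundaries 400 held a match, or 26.0% (Wilson interval 23.9% to 28.2%), against 29.6% at opposite-strand pairs, 33.4% at several promoters and 23.4% at boundaries with no coding promoter. Single-promoter boundaries with a match had a median strength of 0.784 and were strong in 71.3% of cases, and those without a match had a median of 0.655 and were strong in 61.8%. Boundaries with no coding promoter had a median of 0.722 with a match and 0.464 without one. The widest gap between the classes therefore stood where no match was found: 61.8% of 1139 single-promoter boundaries were strong, against 47.0% of 3767 with no coding promoter. With a match the shares were 71.3% at single-promoter boundaries and 69.5% at those with no coding promoter. A second match went with no further strength: 329 boundaries with 1 match had a median of 0.796, 62 with 2 matches 0.632, and 9 with 3 or more 0.584. A match is only a run of letters, and whether CTCF occupied it in these neurons was not tested.

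The TSSs lay about equally on either side of the boundary midpoint. On the forward strand 349 TSSs were left of the midpoint and 404 right of it, and on the reverse strand 426 were left and 360 right. Over both strands this gave 775 TSSs on the left and 764 on the right, and 753 forward and 786 reverse genes. The boundaries of forward genes had a median strength of 0.716 and those of reverse genes 0.661, with overlapping intervals. Read along the direction of transcription, the midpoint lay upstream of the TSS in 830 of 1539 cases, or 53.9% (Wilson interval 51.4% to 56.4%), and in 14 of 19 autosomes the share was above 50%. It was 49.7% of the 543 boundaries that met the rule without widening, and 51.7% for genes of 100 kb or less (Wilson interval 48.9% to 54.5%). The distance between TSS and midpoint had a median of 4.88 kb, and 409 TSSs, or 26.6%, fell in the 5 kb interval itself. Among the 1130 TSSs over 2.5 kb away from the midpoint, 55.4% had the midpoint upstream.

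The genes nearest the edge of the widened window had strengths of like size on either side of it. Plxnd1, Fbxl17 and Smim5 were the last genes inside it, with TSSs 12.4955, 12.4835 and 12.4655 kb from the midpoint and strengths of 0.637, 1.02 and 0.450. Tph2, Hps1 and Gm4952 were the first outside, 12.5215, 12.5225 and 12.5265 kb away, with strengths of 0.912, 0.598 and 0.509.

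**Figure D2:**
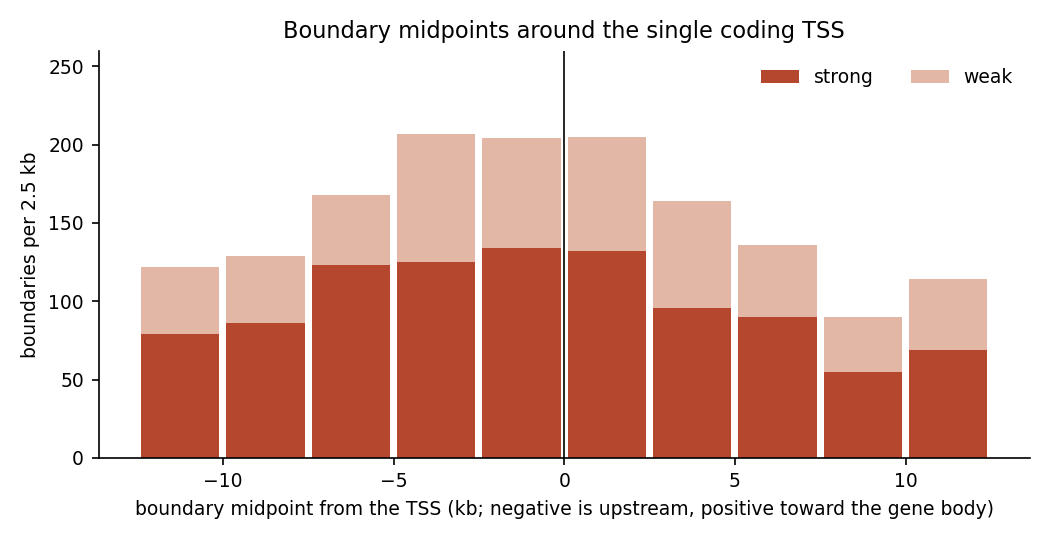
Number of boundary midpoints per 2.5 kb of distance from the single coding TSS, oriented along transcription, with strong boundaries below weak ones in each bar. Counts are 207 and 204 in the 5 kb upstream of the TSS, 205 and 164 in the 5 kb downstream, and 90 in the bar of 7.5 to 10 kb downstream.

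Seen from the genes, boundaries were densest within 5 kb of the TSS on either side. Around 13443 coding TSSs with no other coding TSS within 12.5 kb, called isolated here, 31.0 boundary midpoints per 1000 TSSs lay in the 5 kb upstream and 27.2 in the 5 kb downstream. These were 417 and 366 midpoints, and the difference between them was not tested. At single-promoter boundaries 204 midpoints lay in the 2.5 kb upstream and 205 in the 2.5 kb downstream. Further upstream, between 10 and 50 kb, the values per 5 kb were 18.2 to 23.5. Downstream they were 15.1 to 17.9 between 10 and 50 kb, lower than on the upstream side in every matching step of 5 kb. Strong boundaries alone numbered 19.5 per 1000 in the 5 kb upstream and 16.7 in the 5 kb downstream.

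The share of midpoints upstream of the gene rose with strength, but the Wilson intervals of all 5 steps of strength overlapped. The share was 51.5% of 550 boundaries with a strength of 0.2 to 0.5, 52.7% of 526 from 0.5 to 1, 56.1% of 287 from 1 to 1.5, 59.0% of 122 from 1.5 to 2, and 68.5% of 54 at 2 or more (Wilson interval 55.3% to 79.3%). At strengths of 0.2 to 0.5 the interval was 47.3% to 55.6%. The 10 strongest ran the other way, with 3 of 10 upstream. Genes with CpG-rich promoters had shares of 49.8%, 51.4%, 59.0%, 67.2% and 76.0% over the same 5 steps. Genes with other promoters had 53.1%, 54.3%, 52.1%, 51.6% and 62.1%, without a steady order. The interval of the highest step spanned 56.6% to 88.5% of 25 CpG-rich cases and 44.0% to 77.3% of 29 others, and the difference between the 2 promoter kinds was not tested.

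**Figure D3:**
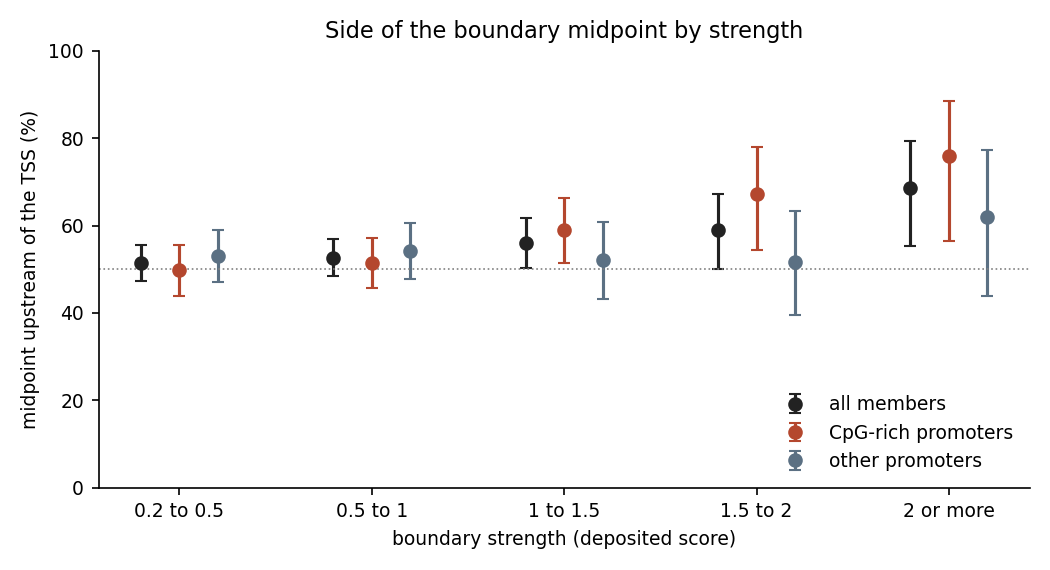
Percentage of single-promoter boundaries with the midpoint upstream of the TSS, by deposited strength, for all of them, for CpG-rich promoters and for other promoters, with 95% Wilson intervals and a dotted line at 50%. The points for all boundaries go from 51.5% at the lowest strengths to 68.5% at 2 or more, with overlapping intervals.

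The orientation of CTCF matches differed on the 2 sides of the gene start. Within 20 kb upstream of the TSS, 140 of 392 matches, or 35.7% (Wilson interval 31.1% to 40.6%), were on the strand of the gene, against 54.6% of 1880 matches upstream of 11870 isolated genes at no boundary. Genes at no boundary, also called away from boundaries, are those with the TSS in no widened boundary window. A boundary could still lie further from their TSS. Within 20 kb downstream, 183 of 316, or 57.9%, were on the strand of the gene, against 47.5% of 1574 at isolated genes away from boundaries. At boundaries with a strength of 1 or more the shares were 29.9% upstream and 60.4% downstream. Matches on the opposite strand therefore made up most of the upstream side, pointing away from the gene, and matches on the gene's strand most of the downstream side, pointing along transcription. Measured from the boundary midpoint instead, 491 of 723 matches within 20 kb, or 67.9% (Wilson interval 64.4% to 71.2%), pointed away from it, against 63.0% of 2074 (60.9% to 65.1%) at boundaries with no coding promoter. In both classes most matches pointed outward. In the 5 kb just upstream of the TSS, 42.2 matches per 1000 genes were on the gene's strand and 40.3 on the other strand, against 22.9 on the gene's strand and 17.0 on the other at isolated genes at no boundary. The 2 positions of the midpoint gave opposite strands there. With the midpoint upstream of the TSS, 60.2 per 1000 genes were on the gene's strand and 36.1 on the other. With the midpoint downstream, 21.2 were on the gene's strand and 45.1 on the other.

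**Figure D4:**
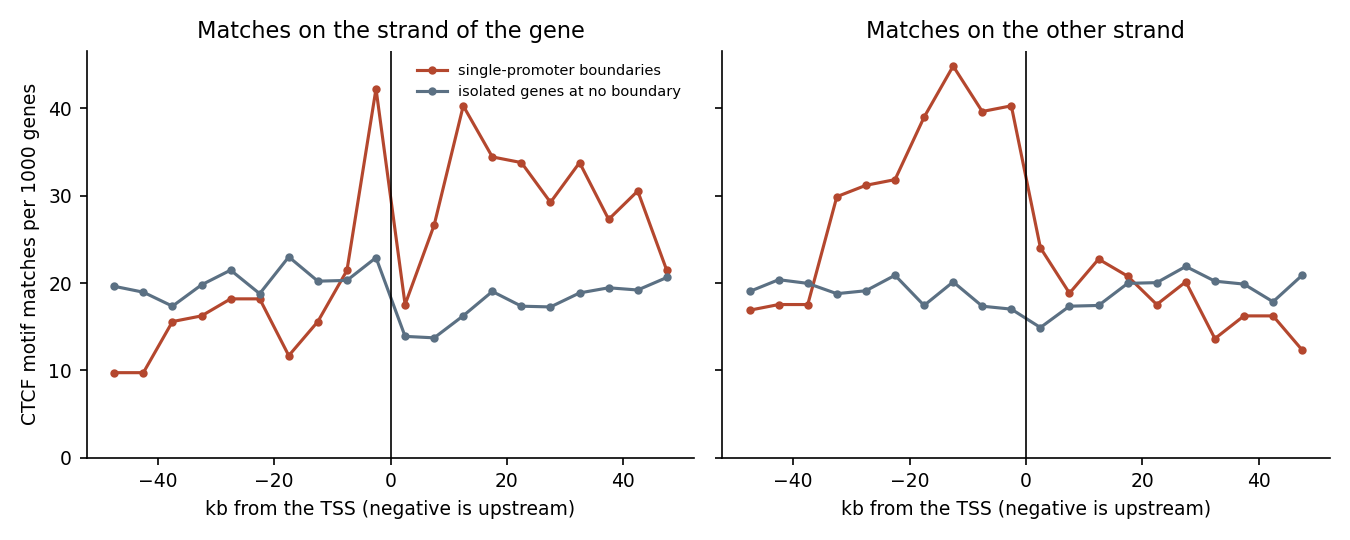
CTCF motif matches per 1000 genes in 5 kb steps around the TSS, on the strand of the gene (left) and on the other strand (right), for single-promoter boundaries and for isolated genes at no boundary. In the step just upstream of the TSS the boundary genes have 42.2 matches on their own strand and 40.3 on the other, against 22.9 and 17.0 at genes away from boundaries.

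Gene models at single-promoter boundaries had a median length of 24.3 kb (interval 22.5 to 26.1) and quartiles of 10.3 and 63.2 kb, against 17.6 kb over all autosomal coding genes and 10.8 kb for coding genes at other boundaries. The rule favours genes with no close neighbour, and isolated genes away from boundaries had a median of 23.2 kb, beside 25.5 kb for the 1442 isolated genes among those at single-promoter boundaries. The 2 promoter kinds differed in direction. Isolated CpG-rich genes had a median of 30.4 kb at these boundaries and 37.7 kb away from boundaries, while isolated genes with other promoters had 21.0 kb at the boundaries and 16.0 kb away from them. Genes at strong boundaries had a median of 24.6 kb and those at weak ones 23.7 kb.

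Midpoints lay upstream most often at the longest genes, while strength had no steady order over gene length. The share of strong boundaries was lowest over 200 kb, at 56.7% (Wilson interval 47.7% to 65.2%). It was highest at 50 to 100 kb, at 68.5% (61.0% to 75.2%), and the intervals of all lengths overlapped. For 120 genes over 200 kb the median strength was 0.564 and 68.3% of midpoints lay upstream (Wilson interval 59.6% to 76.0%). For 160 genes of 100 to 200 kb the values were 0.631 and 60.6%. For 162 genes of 50 to 100 kb they were 0.746 and 60.5%. For 482 genes of 5 to 20 kb they were 0.745 and 48.8%, and for 433 genes of 20 to 50 kb 0.698 and 49.0%. The shortest genes, 182 of up to 5 kb, had a median strength of 0.635 and 58.2% of midpoints upstream. Among the 5 longest, Cntnap2, a neurexin-family adhesion gene of 2245 kb, had a strength of 0.783, Tenm2, a teneurin, 0.569 over 1229 kb, and Sdk1, a sidekick adhesion gene, 0.647 over 974 kb. Wwox, an oxidoreductase gene at a common fragile site, spanned 913 kb with a strength of 1.61, and Hdac9, a histone deacetylase gene, spanned 870 kb with 0.381. Cntnap2, Sdk1 and Wwox had the midpoint upstream, and Tenm2 and Hdac9 downstream. The shortest were Gm5788 with 0.435 kb, Gm26661 with 0.471 kb, Rpl9-ps6 with 0.714 kb, AC153137.1 with 0.726 kb and Gm6685 with 0.764 kb.

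Of the 1539 genes, 631 (41.0%) spanned the midpoint of their own boundary. Of 1535 with a next boundary on the gene's side, 72 (4.69%) ran past its midpoint, and 35 (2.28%) ended in its widened window. For 1385 genes the 3′ end lay between their own boundary midpoint and the next one. Measured from their own midpoint, it lay at a median of 10.9% of that gene-side interval. That gene-side interval had a median of 235 kb and the one behind the gene 230 kb, both below the median of 265 kb over all autosomal spacings. The genes themselves had a median length of 24.3 kb, well below these intervals. How often other genes run past a boundary was not counted. The longest gene-side intervals were 3595 kb at Ceacam20, 1915 kb at Olfr465-ps1, 1750 kb at Myc, 1395 kb at Minar1 and 1320 kb at Gm6685. Myc, the growth-regulating transcription factor gene, had a weak boundary of 0.320 with its midpoint 2.89 kb upstream.

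The midpoint lay between coding genes in 808 cases (52.5%), in the gene itself in 631 (41.0%) and in another coding gene in 100 (6.50%). Strength was highest between genes, with a median of 0.747 and 67.0% strong. In the gene itself the values were 0.659 and 62.0%, and in another gene 0.594 and 57.0%. The intervals of the strong shares overlapped. So did those of the medians between genes (0.6841 to 0.791) and in the gene itself (0.605 to 0.706). In another gene the interval of the median (0.447 to 0.6838) ended just below that between genes. The 5 kb interval overlapped an exon of the gene in 735 cases (47.8%). A noncoding RNA gene also started in the window of 403 boundaries (26.2%), with a lincRNA at 117, an antisense RNA at 111 and a miRNA at 58. Within 12.5 kb of the TSS such a start was found for 27.2% of isolated genes at these boundaries and 22.6% of isolated genes away from boundaries. The 3′ end of another coding gene on the same strand was found there for 21.3% at the boundaries and 20.4% away from them. Boundaries with and without a noncoding RNA start had medians of 0.700 and 0.680, with overlapping intervals.

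Promoters at these boundaries were more often CpG-rich, taken here as at least 50% GC and an observed to expected CpG ratio of at least 0.6 over 300 bases. The share was 820 of 1539, or 53.3%, against 42.5% of all autosomal coding promoters. Among isolated genes it was 53.8% at the boundaries (Wilson interval 51.2% to 56.4%) and 38.4% away from boundaries (37.5% to 39.3%). Put the other way, 14.4% of isolated genes with a CpG-rich promoter lay at a single-promoter boundary, and 8.26% of isolated genes with another promoter. Within the set, boundaries at CpG-rich promoters had a median strength of 0.713, against 0.666 for the others, with overlapping intervals.

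Of the 9 promoter motifs searched, the GC box, the ETS core and the NRF1 core had shares whose intervals lay above those over all coding promoters, and the TATA box had an interval below. The GC box GGGCGG was found on either strand in 52.6% of the 1539 promoters, against 43.7% of all autosomal coding promoters and 41.8% of those of isolated genes at no boundary. The ETS core CCGGAAG was found in 14%, against 11% of all and 8.37% of isolated promoters away from boundaries. The NRF1 core GCGCATGC was found in 5.0%, against 3.45% of all, and the YY1 core ATGGCGG in 5.39%, against 4.83% of all. The TATA box TATAAA was found in 10.1%, against 12.7% of all, and the NF-Y core CCAAT in 35.8%, against 38.6% of all. The CRE core TGACGT was found in 9.75% against 8.63% of all, the E-box CACGTG in 8.38% against 7.82%, and a part of the ZNF143 site, ACTACAA, in 3.31% against 3.83%. For these 3, the YY1 core and the NF-Y core the intervals overlapped those over all coding promoters. Among isolated genes the YY1 core was found in 5.41% at these boundaries (4.36% to 6.70%). Away from boundaries it was found in 3.67% (3.35% to 4.03%), without overlap. The 9 motifs differ in GC content, and its part in the shares was not tested.

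Over all 20807 autosomal coding genes, 1539 or 7.40% lay at a single-promoter boundary, and 20 of 27 gene lists had a higher share. Only proteasome subunits, chaperones, ubiquitin conjugation and removal genes, and vesicle trafficking genes had intervals wholly above 7.40%. The intervals of the other lists with a higher share held it. Vesicle trafficking genes had 12 of 87 (13.8%, Wilson interval 8.07% to 22.6%). The highest share was that of proteasome subunits, the parts of the complex that degrades ubiquitin-tagged proteins, with 11 of 38 genes or 28.9% (Wilson interval 17.0% to 44.8%). Their boundaries had a median strength of 1.07, and 10 of 11 were strong, beside 64.3% over all 1539 boundaries. The regulatory particle genes Psmd6 (2.57), Psmd7 (2.41), Psmc1 (2.28), Psmd12 (1.51), Psmd3 (1.25) and Psmc4 (1.07) were the strongest. The core particle genes Psmb4 (0.748), Psmb7 (0.706) and Psma5 (0.673) followed, and the regulatory particle genes Psmd11 (0.5998) and Psmd4 (0.493) had the lowest strengths. Midpoints lay upstream at 7 of the 11, beside 53.9% over all 1539 boundaries. A CTCF match lay in 5 of the 11 windows, beside 26.0% over all.

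Chaperones had 13 of 80 genes (16.3%, Wilson interval 9.75% to 25.8%), led by Cct8 (1.90), a subunit of the cytosolic chaperonin, Dnajb12 (1.86) and Hspa9 (1.57), the mitochondrial Hsp70, and 11 of the 13 midpoints lay upstream. Of ubiquitin conjugation and removal genes 11 of 78 (14.1%, interval 8.06% to 23.5%) were at such a boundary, with Usp19 at 1.38, and 2 of 11 midpoints lay upstream. Cytosolic ribosomal protein genes had 10 of 77 (13%, interval 7.21% to 22.3%, which holds 7.40%), with a median strength of 1.04, led by Rps3 (1.96), Rplp1 (1.74) and Rpl17 (1.51). Their share at any boundary was 35.1%, against 13.2% of all coding genes. Translation initiation factors had 6 of 52 (11.5%, interval 5.40% to 23.0%, which also holds it), and all 6 had the midpoint upstream and a CpG-rich promoter. These were Eif1 (3.10), Eif4b (1.41), Eif5 (1.03), Eif3j1 (0.765), Eif3b (0.742) and Eif2s2 (0.380). Solute carriers, the transporter family, had 31 of 358 (8.66%), near the 7.40% of all genes. Their interval of 6.17% to 12.03% holds that share. Slc10a1, a bile acid transporter gene, was their strongest at 2.17, and 23 of 31 midpoints lay upstream. Over all 1539 boundaries 53.9% of midpoints lay upstream and 53.3% of promoters were CpG-rich. The lists are small and lay on both sides of the upstream share, with cytochrome P450 genes at 4 of 11. Whether any list differs from these shares was not tested.

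The lists for olfactory neurons were short, so their shares have wide intervals. Over all 1539 boundaries 53.9% of midpoints lay upstream, which the few genes of each list below cannot be told from. Of 23 regulators of the olfactory lineage 4 lay at single-promoter boundaries (17.4%, interval 6.98% to 37.1%, which holds 7.40%). Ebf3 had 2.499 and Emx2, a homeobox factor of olfactory neuron development, 2.33. Nipbl, which loads cohesin, had 0.813, and Lhx2, which with Ebf factors binds odorant receptor enhancers, had a weak boundary of 0.447. The midpoint lay upstream at Ebf3, Emx2 and Nipbl and inside Lhx2. Of 24 genes of mature olfactory neurons 3 were members (12.5%): Gng13, a G protein gamma subunit gene, at 1.21, Umodl1 at 0.705 and Ppp3ca, a calcineurin subunit gene, at 0.472, all with the midpoint upstream. Of 14 genes of immature neurons 1 was found (7.14%), Nrp1, a semaphorin receptor gene, at 0.969. Of 15 genes of basal and dividing cells 1 was found (6.67%), Aurkb, a mitotic kinase gene, at 0.729. Of 18 genes of sustentacular and other mucosal cells 2 were found (11.1%): C1qa, a complement gene of macrophages, at 0.850 and Sox10, a glial factor gene, at 0.770. The intervals of these 4 lists all hold 7.40%.

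Odorant receptor genes, encoding the receptors from which each neuron chooses, were rarer at these boundaries than other genes. Their count was 34 of 1128 or 3.01% (Wilson interval 2.16% to 4.18%). The rule asks for exactly 1 coding TSS in the window, which closely spaced genes meet less easily. At boundaries of any class lay 67 of the 1128 (5.94%), against 13.2% of all coding genes. The single-promoter boundaries of the 34 had a median strength of 0.382 and 14 were strong, beside 64.3% over all 1539 boundaries. Strengths of the 34 ran to 2.84 at Olfr1423, 2.78 at Olfr220 and 2.35 at Olfr267. None of the 34 promoters was CpG-rich, beside 53.3% over all 1539 boundaries, and 18 midpoints lay upstream, beside 53.9%. Vomeronasal receptor genes had 16 of 327 (4.89%), with an interval of 3.03% to 7.80% that holds the 7.40% of all genes. The median strength was 0.347, and Vmn1r30 was the strongest at 1.70. None of the 16 had a CTCF match, beside 26.0% over all 1539 boundaries. Replication-dependent histone genes had 0 of 67, which allows a share of up to 5.42% by the Wilson interval. At boundaries of other classes lay 11 of them, or 16.4% of the list, against 13.2% of all coding genes at any boundary. The 0 therefore holds for this class of boundary only. Homeobox and related developmental factors had 18 of 192 (9.38%), with an interval of 6.01% to 14.3% that also holds 7.40%. Their median strength was 0.464, and among them were Dlx3 (1.24) and Irx4 (1.08).

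**Figure D5:**
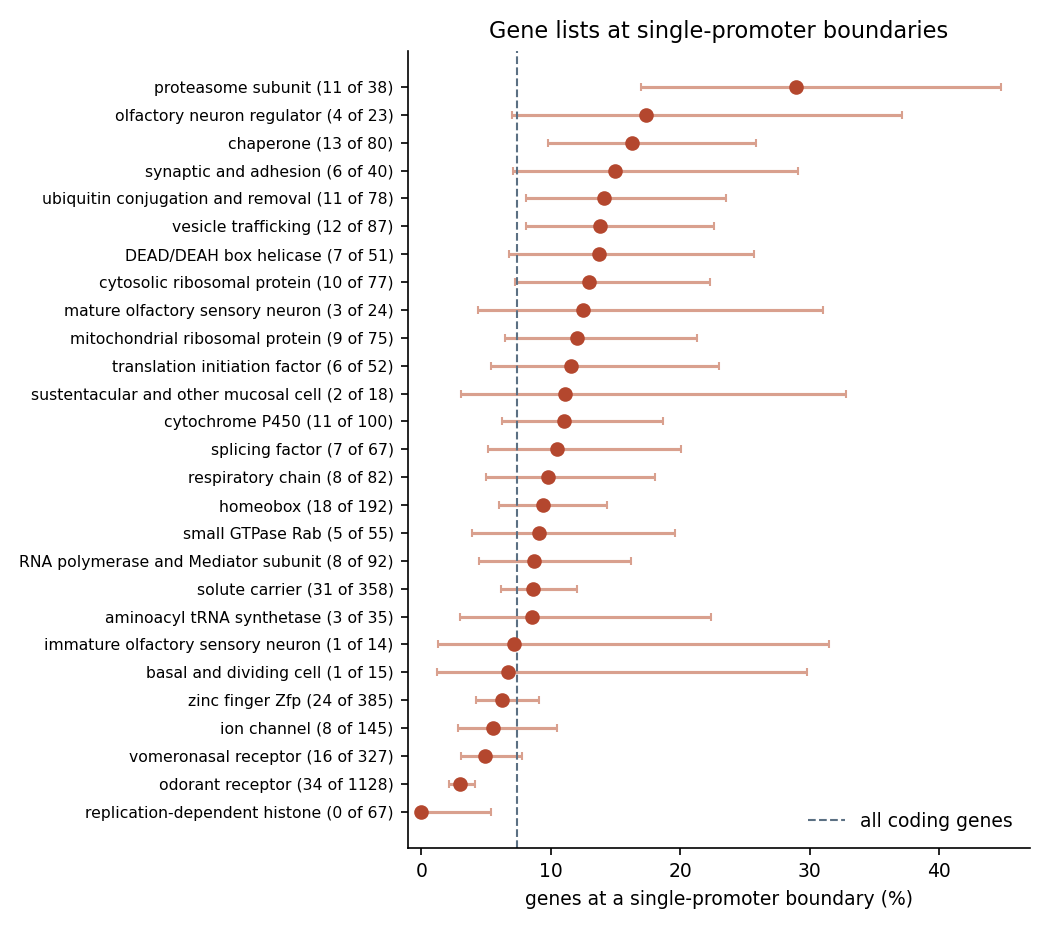
Percentage of the autosomal genes of each list that lie at a single-promoter boundary, with 95% Wilson intervals and the counts beside each name. The dashed line marks 7.40%, the share over all autosomal coding genes. Proteasome subunits stand at 28.9% and odorant receptor genes at 3.01%, and the other lists mostly have intervals that hold the line.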

How the data were processed

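The boundary list was the only deposited data used. Per the series design text, the authors combined the contacts of both Hi-C replicates into 1 matrix and called boundaries from it on GRCm38, a build also named in the submitters' processing notes. Strength is a score that the authors deposited without a stated scale. For the boundary caller, its window and the aligner, names and settings were not given in the sources used here. In the list no strength is below 0.2 and the class turns from weak to strong at 0.5. No counts are listed, so the depth is unknown. The score was used only within the list.

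Genes were the protein-coding models of GENCODE mouse release 21 on GRCm38, with the 5′ end of the model as TSS (21755 on chromosomes 1 to 19 and X). CTCF matches were the 12728 occurrences of a 12-base core of the CTCF motif on either strand of the GRCm38 sequence from RefSeq. Promoters ran from 250 bases before to 50 bases from the TSS. The boundary classes, sides and motif scan were checked on planted data. Shares have Wilson intervals, differences Newcombe intervals and medians order-statistic intervals, computed in Python 3.11.15 with pandas 2.3.3 and scipy 1.17.1. No p-value was computed.

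The boundaries and gene lists were chosen with earlier results of these data known. Genes named are the 20 strongest, up to 3 at the strongest boundaries of each list (all for olfactory neurons), the 5 longest and 5 shortest genes, the 5 with the longest gene-side interval and the 3 nearest the window edge on each side. The 4 printed promoters are from the 11 strongest boundaries and the CTCF matches from the strongest ones with a match, not all of which are shown. No sequence from chromosome 18 was printed. The further subunits and factors named for proteasome and translation initiation genes, and Crbn and Ttc34, were added after their values were seen. Alternatives covered the window, pair distance, TSS definition, gene models, X chromosome, close neighbours, motif and CpG limits.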

Additional observations from a re-analysis of the deposited data

How the results depend on the processing

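All 1539 boundaries come from 1 pooled list, so no replicate could be left out. No paired analysis was possible because the replicates were combined before boundaries were called. Of 86 alternative values, 66 stayed within the interval of the reported value (for counts, within 1.5 times). Without widening of the interval the number of boundaries was 543, midpoints lay upstream in 49.7%, median gene length was 21.0 kb, CTCF matches were in 5.71%, CpG-rich promoters made up 58.2% and 13 of 27 gene lists exceeded the share of all genes. With a 5 kb window median gene length was 21.7 kb and the CTCF share 19.1%. With a 20 kb window 56.5% of midpoints lay upstream, median gene length was 28.6 kb and the CTCF share was 38.6%, since a wider window holds more sequence. With transcript start sites, merged within 1 kb, median gene length was 31.0 kb; CpG content was not computed there. Strong boundaries alone had CTCF matches in 28.8%, and the longer motif matched in 11.6%. CpG-rich promoters made up 57.2% over 1 kb and 39.5% with a ratio of 0.75. A strength of 1 or more was reached by 30.1%. Alternatives chosen after seeing the data were genes of 100 kb or less, where no value left its interval, and boundaries with a strength of 1 or more, where 58.3% of midpoints lay upstream, median gene length was 21.3 kb and 31.3% had a CTCF match. The strong share and median strength stayed within their intervals in all settings tried but the stricter threshold. The depth of the map is unknown, and its 5 kb steps limit the position of each midpoint.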

Other observations

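On the X chromosome, which the rule leaves out, 62 of 373 boundaries (16.6%) would have met it. Of these, 26 (41.9%, Wilson interval 30.5% to 54.3%) were strong, with a median strength of 0.424, against 34.4% of 302 X boundaries with no coding promoter. The midpoint lay upstream of the TSS in 26 of the 62.

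Among autosomes, single-promoter boundaries made up 14.2% to 28.1% of a chromosome's boundaries, with a median of 21.4%. The share of a chromosome's coding genes at such a boundary ran from 5.78% to 12.1%. The median strength per chromosome was between 0.594 and 0.916.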
